A study of Mus musculus with 8 samples.

Results

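The 10 genes at the core of the mammalian circadian clock, Arntl, Clock, Per1, Per2, Per3, Cry1, Cry2, Nr1d1, Nr1d2 and Dbp, were read by 18 of the 41174 probes of a mouse genome array, and they are 10 of its 21250 named genes. They were chosen by symbol in the array files, with every probe of each kept. RNA came from whole pancreas of Glis3KO2 mice (4 samples) and of wild type mice (WT, 4 samples). All mice were C57BL/6 pups aged 1 week that stayed with their mother, and no allele or agent beyond the genotype is labelled. Glis3KO2 is a mouse line labelled as lacking Glis3, a zinc finger transcription factor, and the labels do not give the deleted part or a time of collection. Every sample had its own single-colour array, in a series whose title concerns pancreatic beta cells.

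The clock is a feedback loop of transcription that runs in nearly every cell. ARNTL and CLOCK bind E-boxes as a pair and drive the Per, Cry, Nr1d and Dbp genes, and the PER and CRY proteins then shut that pair down. NR1D1 and NR1D2 repress Arntl, so that Arntl RNA peaks at the opposite time of day from Nr1d1, Dbp and the Per genes. A tissue taken at another hour can then show Arntl and these genes moved in opposite directions. In the pancreas the islet clock is known to shape insulin secretion, and feeding sets the phase of digestive tissues.

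Of the clock gene promoters, given by RefSeq on GRCm38.p6 from 250 bases before to 50 after the start, 5′ to 3′, 2 are shown. Those of Arntl (chr7:113207261-113207560, plus strand) and Per1 (chr11:69098699-69098998, plus strand) stand for the 2 arms that are compared, and each was picked over the gene's other window, which held 0 of the motifs searched. Capitals mark TAGGTCA, the Rev-erb and ROR core, in Arntl and CACGTG, the E-box, in Per1.
Arntl promoter: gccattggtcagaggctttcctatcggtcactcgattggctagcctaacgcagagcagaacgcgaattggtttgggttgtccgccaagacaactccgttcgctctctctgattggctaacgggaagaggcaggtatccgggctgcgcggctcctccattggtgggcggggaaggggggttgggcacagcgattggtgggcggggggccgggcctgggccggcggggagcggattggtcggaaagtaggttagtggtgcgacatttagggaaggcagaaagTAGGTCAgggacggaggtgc
Per1 promoter: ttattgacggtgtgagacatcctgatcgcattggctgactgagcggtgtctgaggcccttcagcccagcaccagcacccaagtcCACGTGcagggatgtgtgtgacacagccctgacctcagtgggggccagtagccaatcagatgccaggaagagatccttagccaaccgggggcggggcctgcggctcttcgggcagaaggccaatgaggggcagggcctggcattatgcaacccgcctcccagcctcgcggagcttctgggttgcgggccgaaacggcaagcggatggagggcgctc
The core in Arntl began 30 bases after the start, and the E-box in Per1 began 166 bases before it. Of 32851 promoter windows of this length, 7.15% held CACGTG and 6.45% held TAGGTCA or TGGGTCA, on either strand. Windows were matched for 9 of the 10 genes, 13 windows in all. The E-box letters were in windows of 2 genes, Per1 and Cry1, in Cry1 at 60 bases before the start, while the windows of Clock, Cry2, Nr1d1, Nr1d2 and Dbp held none of the motifs searched. The D-box TTATGTAA, which DBP binds, occurred at 205 and 158 bases before the Per3 start (TTATGTAA or TTACGTAA is in 1.06% of windows). TGACGTCA, the cyclic AMP response element, was in 0 of the 9 genes' windows and in 1.79% of all. These matches describe letters in these windows and no binding.

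Per array, 31353 to 35613 probes gave a signal well above background, and the 75th percentile of the unscaled signal lay between 460 and 694. Values below are log2 signal relative to that percentile of the same array, so a spot of that brightness is at 0. The number of arrays, 4 per genotype, limits the precision of every value, and since the labels do not say whether pups came from separate litters, p-values reflect only how these samples vary. Each slide held the arrays of 1 genotype only, which means that slide and genotype cannot be told apart. Glis3 was read by 1 dim probe, well above background on 0 Glis3KO2 and 3 WT arrays. Its values were -6.43 to -5.93 on Glis3KO2 arrays and -6.06 to -5.35 on WT arrays, and the difference of -0.57 did not pass the threshold (adjusted p = 0.496 by limma with no filter on dim probes). Ins2, an insulin gene, lay between 4.67 and 5.83 on Glis3KO2 arrays and between 8.77 and 9.07 on WT arrays. Xist, the RNA of the silenced female X chromosome, was high on Glis3KO2 replicates 1, 3 and 4 and on WT replicate 4, and low on the others. Glis3KO2 replicates 3 and 4 stood apart on the first principal component (26.5% of the variance), at 39.8 and 59.0 where the other 6 arrays lay between -26.0 and 0.46.

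Clock gene RNA did not differ detectably between Glis3KO2 and WT pancreas at this number of arrays. All 18 probes were well above background on all 8 arrays, yet 0 of 18 probes and 0 of 10 genes passed an adjusted p of 0.05 in limma, against 0.256% of all 33239 tested probes and 0.351% of all genes. The smallest adjusted p among them was 0.456. At an unadjusted p of 0.05, 2 probes were lower in Glis3KO2, both of Clock (5.87% of all probes), and 1 was higher, of Nr1d1 (3.1% of all probes). The groups were apart on 1 lower probe (3.35% of all probes) and on 0 higher ones (1.86%). Of the 18 differences 11 were negative, against 52.0% over all probes. The median size of the difference, with its sign dropped, was 0.13 both over the 18 probes and over all tested probes. Of the 18 intervals, 17 lay within a 2-fold change, each being a 95% interval for its probe alone. They cover variation between arrays and not a difference between slides, so larger changes of RNA are not excluded. Changes within 2-fold also remain possible, and the low p-value counts do not show that levels were equal.

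**Figure D1:**
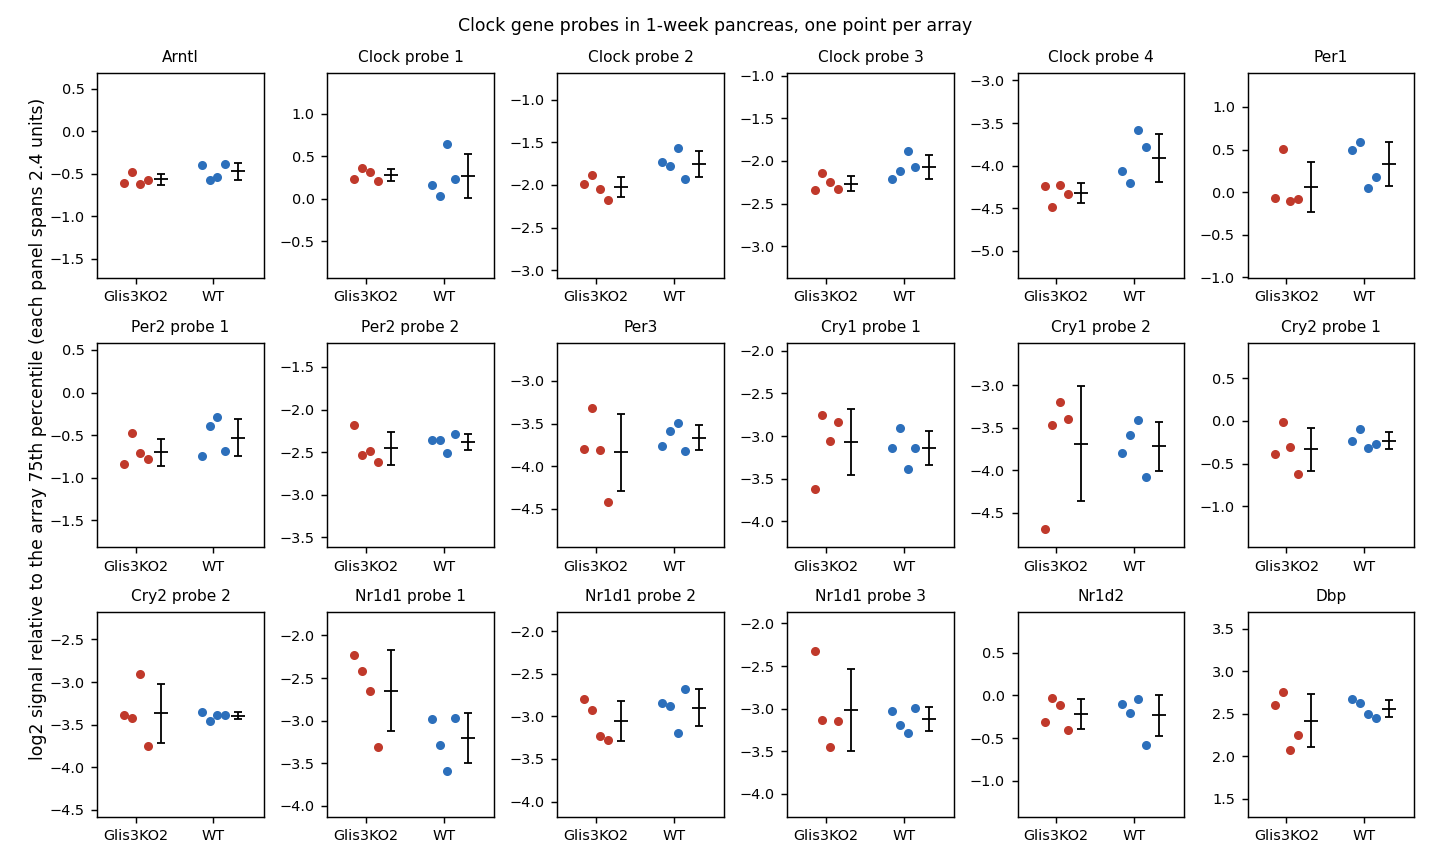
Log2 signal relative to the 75th percentile of the array (y axis) on the 4 Glis3KO2 arrays (red) and the 4 WT arrays (blue), 1 panel per probe, each spanning the same number of log2 units, with mean and SD beside the points. The groups overlap in 17 of the 18 panels, and in the other, Clock probe 4, the Glis3KO2 points lie between -4.49 and -4.23 and the WT points between -4.20 and -3.58.

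Arntl, the activator also called Bmal1, was the steadiest member. Its values were -0.61, -0.48, -0.62 and -0.57 in Glis3KO2 replicates 1 to 4, against -0.40, -0.57, -0.54 and -0.39 in WT replicates 1 to 4. The groups overlapped, and the whole span of the 8 arrays was 1.17-fold. It averaged -0.57 ± 0.061 in Glis3KO2 and -0.47 ± 0.095 in WT (SD, n = 4 each), a difference of -0.094 with a 95% interval of -0.31 to 0.12 (limma adjusted p = 0.823). The unscaled processed signal was 304 to 453 in Glis3KO2 and 310 to 386 in WT. The probe lies at chr7:109229489-109229548 on the plus strand of build mm7, which the array files use, and its letters are shown since a single probe carries the activator's value.
Arntl probe: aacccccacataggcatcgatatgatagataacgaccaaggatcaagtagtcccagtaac

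Clock, the partner of ARNTL and a histone acetyltransferase, had 4 probes with differences between -0.41 and 0.012. Their deviations from the genotype means correlated with r from 0.13 (probes 2 and 4) to 0.85 (probes 1 and 3). Probe 1, the brightest, read 0.24, 0.36, 0.32 and 0.21 in Glis3KO2 against 0.17, 0.035, 0.64 and 0.23 in WT. Every Glis3KO2 array lay between WT replicates 2 and 3, the lowest and the highest of all, and the difference was 0.012 (95% interval -0.30 to 0.32, limma adjusted p = 0.990). Probe 4 read -4.24, -4.49, -4.23 and -4.33 in Glis3KO2 against -4.06, -4.20, -3.58 and -3.78 in WT. All 4 Glis3KO2 arrays lay below all 4 WT arrays, as for 3.35% of all tested probes, and the gap between the groups was narrow. Its difference was -0.41 (95% interval -0.75 to -0.078, unadjusted p = 0.0211, limma adjusted p = 0.456), and with normexp background and an offset of 50 it was -0.22. The unscaled signal of this probe was 24.4 to 36.9 in Glis3KO2 and 25.0 to 43.9 in WT, and the parts of the offset and of the background method were not separated. Probe 2 had a difference of -0.27 (unadjusted p = 0.0410, adjusted p = 0.529) and probe 3 one of -0.19 (adjusted p = 0.651).

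The Clock probes sit on different stretches of chromosome 5, all on the minus strand of mm7. Probes 1 and 3 lie close together, at chr5:76144675-76144734 and chr5:76145071-76145130. Probe 2, designed on a cDNA without a RefSeq accession, lies at chr5:76167876-76167935, and probe 4 lies furthest toward the 5′ side of the gene, at chr5:76186708-76186767. Probes 2 and 4, the pair with an unadjusted p under 0.05, are the pair nearest the 5′ side of the 4. That position was looked at after the values were seen, and neither probe passed the adjusted threshold. Probes 1 and 3, though close together, had differences of 0.012 and -0.19. Whether probes of Clock differ among themselves in their response to genotype was not tested.

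The Per genes, whose proteins carry CRY into the nucleus and hold back ARNTL and CLOCK, all had negative differences and none passed the threshold. Per1, which glucocorticoids and light-evoked signals also induce directly, read -0.063, 0.50, -0.11 and -0.076 in Glis3KO2 against 0.49, 0.59, 0.051 and 0.18 in WT. Glis3KO2 replicate 2 stood among the high WT arrays while the other 3 Glis3KO2 arrays lay below every WT array. The difference was -0.26 (95% interval -0.67 to 0.14, limma adjusted p = 0.717), and it was -0.41 without Glis3KO2 replicate 2 (adjusted p = 0.394). Replicate 2 is also the 1 Glis3KO2 array with low Xist, and with the Xist level as a covariate the Per1 difference was -0.081.

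Per2, which pairs with PER1 in the repressor complex, had 2 probes. Its brighter probe lay between -0.84 and -0.48 in Glis3KO2 and between -0.75 and -0.29 in WT, a difference of -0.17 (95% interval -0.48 to 0.14, limma adjusted p = 0.761). The dimmer probe gave -0.079 (adjusted p = 0.899). Both Per2 probes overlapped between genotypes, and their intervals stayed within a 1.40-fold decrease.

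Per3, a paralog that is not needed for the rhythm itself in mice, was dim and variable. It read -3.80, -3.32, -3.81 and -4.42 in Glis3KO2 against -3.76, -3.59, -3.49 and -3.82 in WT. The highest and the lowest of all 8 arrays were both Glis3KO2, and the WT arrays lay between them. The difference was -0.17 (95% interval -0.65 to 0.31, limma adjusted p = 0.868).

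The cryptochromes, the main repressors of ARNTL and CLOCK, showed differences of both signs near 0. Cry1 probe 1 lay between -3.62 and -2.75 in Glis3KO2 and between -3.39 and -2.91 in WT, with a difference of 0.074 (limma adjusted p = 0.949). Cry1 probe 2 read -4.69, -3.47, -3.19 and -3.40 in Glis3KO2 against -3.79, -3.59, -3.41 and -4.08 in WT. Glis3KO2 replicate 1 was the lowest array on both Cry1 probes, so the 2 probes shared that low value, and on probe 2 the 8 arrays spanned 2.81-fold. The probe 2 difference was 0.030 with a wide interval, -0.67 to 0.73.

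Cry2 probe 1 lay between -0.62 and -0.011 in Glis3KO2 and between -0.32 and -0.094 in WT, a difference of -0.10 (95% interval -0.41 to 0.21, limma adjusted p = 0.885). That value was -0.21 without Glis3KO2 replicate 2 and -0.0035 without Glis3KO2 replicate 4. Cry2 probe 2, whose 60 bases span 2266 bases of chromosome 2 and so cross a splice junction, gave 0.030 (95% interval -0.34 to 0.40). On both probes the Glis3KO2 arrays were more spread, with an SD of 0.25 on probe 1 and 0.35 on probe 2, against 0.098 and 0.041 on the WT arrays. Per1, Per2 probe 2, Per3, both Cry1 probes, every Nr1d1 probe and Dbp also had the larger SD in Glis3KO2. Arntl, every Clock probe, Per2 probe 1 and Nr1d2 had the larger SD in WT. No difference in spread was tested.

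Nr1d1 encodes REV-ERB alpha, the nuclear receptor that represses Arntl, and it gave the largest difference among the 18 probes. Probe 1 read -2.22, -2.41, -2.65 and -3.31 in Glis3KO2 against -2.98, -3.29, -3.59 and -2.97 in WT. Glis3KO2 replicates 1 to 3 were above every WT array, and replicate 4 was below all WT arrays but replicate 3. The probe averaged -2.65 ± 0.47 in Glis3KO2 and -3.21 ± 0.29 in WT (SD, n = 4 each), a 1.47-fold difference (log2 difference 0.56, 95% interval 0.0079 to 1.10, unadjusted p = 0.0474, limma adjusted p = 0.551). The upper bound of 2.15-fold made it the 1 interval of the 18 that reached 2-fold. With normexp background the difference was 0.25, and without Glis3KO2 replicate 4 it was 0.78 (adjusted p = 0.326).

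The other Nr1d1 probes did not repeat that value. Probe 2 read -2.79, -2.93, -3.23 and -3.28 in Glis3KO2 against -2.85, -2.88, -3.19 and -2.68 in WT, and probe 3 read -2.33, -3.13, -3.45 and -3.14 against -3.03, -3.19, -3.29 and -2.99. On probe 2 the groups covered much the same range, and on probe 3 the Glis3KO2 arrays reached both above and below the WT arrays. Their differences were -0.16 (95% interval -0.51 to 0.19) and 0.11 (95% interval -0.39 to 0.61), with limma adjusted p = 0.818 and 0.928. The difference read by probe 1 exceeded that of probe 2 by 0.71 and that of probe 3 by 0.45 on the log2 scale, which was not tested. Deviations from the genotype means correlated between the probes. The r was 0.87 for probes 1 and 2, 0.56 for 1 and 3, and 0.73 for 2 and 3.

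The 3 probes are printed because they read separate stretches of 1 gene and gave differences of both signs. In mm7, on the minus strand, probe 1 lies at chr11:98884160-98884219, furthest toward the 5′ side, and was designed on a cDNA without a RefSeq accession. Probe 3 lies at chr11:98881057-98881116. Probe 2 lies at chr11:98878251-98878753, and its 60 bases span 503 bases of the genome and so cross a splice junction.
Nr1d1 probe 1: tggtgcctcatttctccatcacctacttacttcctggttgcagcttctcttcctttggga
Nr1d1 probe 2: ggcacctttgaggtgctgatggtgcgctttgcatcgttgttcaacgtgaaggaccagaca
Nr1d1 probe 3: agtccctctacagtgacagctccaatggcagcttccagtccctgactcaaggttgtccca

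Nr1d2, which encodes REV-ERB beta and shares that repressor role, read -0.32, -0.026, -0.11 and -0.41 in Glis3KO2 against -0.10, -0.20, -0.042 and -0.58 in WT. High and low arrays occurred in both genotypes, and the difference was 0.019 (95% interval -0.31 to 0.35, limma adjusted p = 0.986).

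Dbp, the D-box activator whose RNA swings widely over the day in many tissues, read 2.60, 2.75, 2.07 and 2.25 in Glis3KO2 against 2.67, 2.63, 2.49 and 2.45 in WT. Glis3KO2 replicates 3 and 4, the arrays that stood apart on the first principal component, held the lowest values of all 8, and replicate 2 held the highest. The groups overlapped, with a difference of -0.14 (95% interval -0.50 to 0.21, limma adjusted p = 0.851), which is 0.907 of the WT level. With 1 array left out it ran from -0.25 without Glis3KO2 replicate 2 to -0.025 without Glis3KO2 replicate 3. Without replicates 3 and 4 the difference was 0.12, of opposite sign and also short of the threshold (adjusted p = 0.923).

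**Figure D2:**
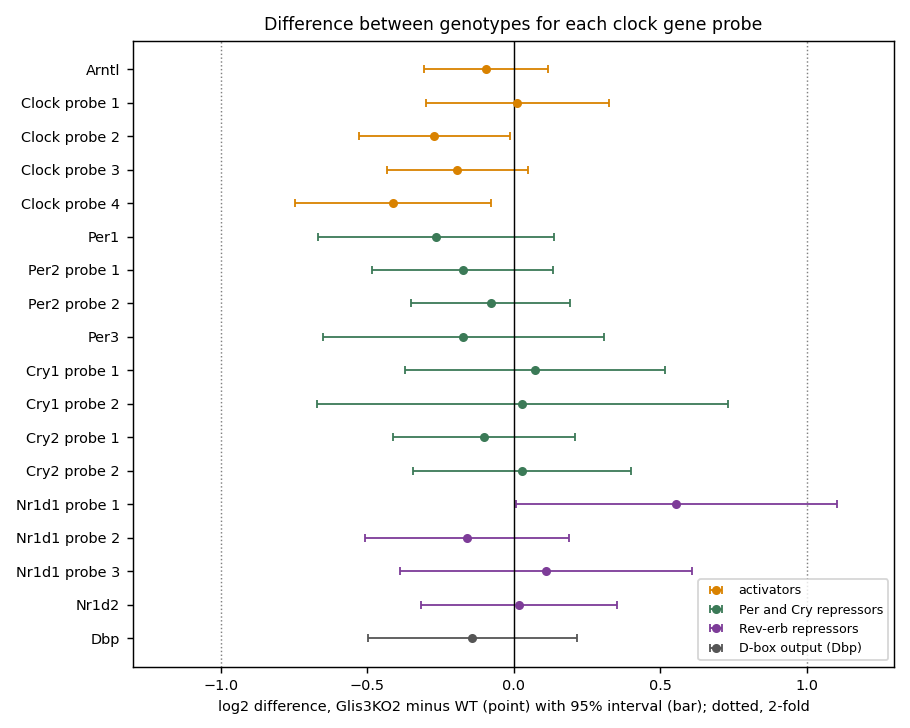
Log2 difference, Glis3KO2 minus WT (x axis), with its 95% interval from limma for each of the 18 probes (rows), coloured by role, with dotted lines at a 2-fold change. The interval of Nr1d1 probe 1, 0.0079 to 1.10, is the 1 that reaches a dotted line, and those of Clock probes 2 and 4 lie below 0.

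The 2 arms were set side by side because Arntl can move opposite to Nr1d1, Dbp and the Per genes when tissue is taken at another hour. The arms also hold Clock and the Cry genes, for which no such timing is stated here. Their medians are thus a description and no reading of phase. By the brightest probe of each gene, the 2 activators had a median difference of -0.041, with 1 negative and 1 positive. The repressors together with Dbp, 8 genes in all, had a median of -0.12, with 5 negative and 3 positive, between -0.26 for Per1 and 0.56 for Nr1d1. Over all 18517 tested genes the median was 0.0082 and 47.9% were negative. The value of Nr1d1 is that of probe 1, which is its brightest over the 8 arrays but not over the WT arrays alone (mean -2.65 in Glis3KO2 and -3.21 in WT). Probe 2, the brightest over the WT arrays, averaged -3.06 in Glis3KO2 and -2.90 in WT, and its difference was -0.16. With the average over a gene's probes in place of the brightest, the medians were -0.15 for the activators and -0.081 for the repressors and Dbp, and Nr1d1 read 0.17. No difference in either arm passed the threshold. Collection time is not labelled, and its part in these values was not tested.

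A clock phase that differed between pups of 1 genotype could also move Arntl opposite to Nr1d1, Dbp and the Per genes across arrays. Each array's deviation from its genotype mean was therefore compared between Arntl and the other 9 members. For Clock and the Cry genes no opposed timing is stated here. Arntl itself varied little (residual SD 0.080, a 1.17-fold span over the 8 arrays), which limits what these relations can show. None of the 9 relations over 8 arrays passed an exact permutation test within genotype (2-sided, 576 arrangements, Benjamini-Hochberg over 9), with adjusted p between 0.841 and 0.976 for Pearson's r and between 0.922 and 0.931 for Spearman's rho. The most negative was with Per2 (r = -0.36, permutation p = 0.398, rho = -0.52, permutation p = 0.339), and the most positive with Nr1d1 (r = 0.40, permutation p = 0.302, rho = 0.52, permutation p = 0.188). For Dbp, r was 0.32 (permutation p = 0.422) and rho 0.19 (permutation p = 0.590). Without WT replicates 1 and 4, the arrays farthest from the Arntl median, r was 0.86 with Per2, -0.0018 with Nr1d1 and 0.62 with Dbp, so these values rest on those arrays. Only WT replicates 2 and 3 then remain of that genotype, and their deviations from their own mean mirror each other. The summed signal of fat cell (adipocyte) markers was 53.9 and 56.1 on WT replicates 1 and 4. On WT replicates 2 and 3 it was 35.9 and 38.2. On Glis3KO2 replicates 1 to 4 the fat cell sum was 54.5, 62.8, 42.2 and 31.6. The leukocyte marker sum on WT replicates 1 to 4 was 5.39, 3.06, 3.07 and 3.86. The part of either sum in the r values was not tested. Arrays of 1 genotype share a slide. Deviations of the 9 members were also set beside those of the first principal component. There r was -0.86 for Per3, -0.85 for Dbp, -0.72 for Cry2, -0.70 for Nr1d1 and -0.52 for Per1. It was -0.43 for Nr1d2, -0.32 for Per2, -0.21 for Clock and 0.24 for Cry1, and none of these was tested.

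The spread between arrays of 1 genotype was ordinary for most members and small for Arntl. The residual SD of Arntl, 0.080 on the log2 scale, was at the 2.78th percentile of all tested probes, and that of Cry1 probe 2, 0.52, at the 92.4th. The median over the 18 probes was 0.22, and over all tested probes 0.21, with 11 of the 18 above that of all probes. On 14 of the 18 probes the 8 arrays spanned less than 2-fold. Dbp had an SD of 0.23, at the 56.6th percentile.

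**Figure D3:**
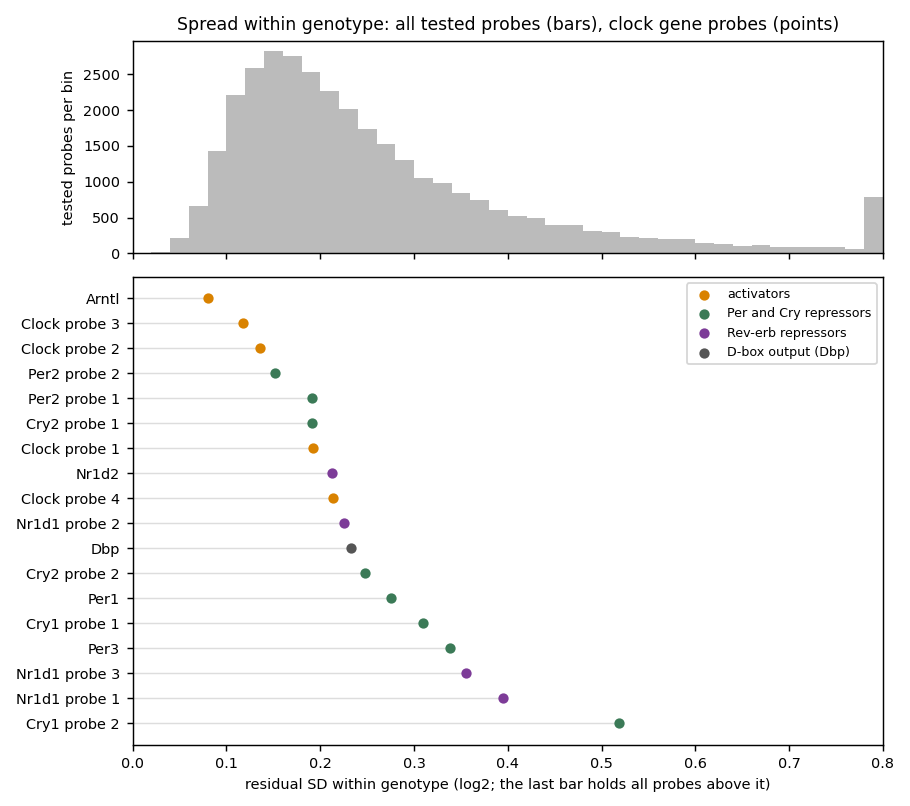
Residual SD within genotype on the log2 scale (x axis) for all tested probes (upper panel, probes per bin) and for each clock gene probe (lower panel, points coloured by role). Arntl sits at 0.080, at the low edge of the bars, and Cry1 probe 2 at 0.52 is the clock gene probe furthest to the right.

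By likeness of pattern, the genes whose deviations from the genotype means followed Arntl most closely over the 8 arrays were Mras (r = 0.96), Rgs16 (0.95), Nmur1 (0.95), Myd88 (0.95) and Olfr739 (0.95). For Dbp they were Npy1r (0.99), Lbx1 (0.98), Inpp5k (0.98), Apobec1 (0.98) and Osgin1 (0.97). Neither set holds another clock member. With 8 arrays and 18489 genes compared, 37 genes exceeded 0.9 with Arntl and 106 with Dbp, and arrays share slide and background, so these are descriptions only.

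The genes around the loop were read from 5 further lists of 45 genes, of which 44 were tested by their brightest probe, and Zbtb16 is not analysed here. In limma 0 of 44 passed the threshold (background 0.351% of genes), and at an unadjusted p of 0.05 there were 4 lower (background 4.74%) and 0 higher (background 3.52%) in Glis3KO2. The 4 were Ciart, Timeless, Fkbp5 and Atf3, of which Timeless is named after its value was seen. Timeless had -0.29 on its brightest probe (limma adjusted p = 0.524) and -0.082 on its other probe (adjusted p = 0.933). Fkbp5 has 3 probes, of which only the brightest is given. The median difference was -0.050, with 28 of 44 negative, and the groups were apart on 1 lower gene, Prkaa1 (background 2.96%), and 1 higher, Nfil3 (background 2.13%).

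Among 12 clock partners, 9 differences were negative and 3 positive, with a median of -0.097. Ciart, a repressor of the ARNTL and CLOCK pair, had the largest. It read -4.04, -3.64, -3.65 and -4.02 in Glis3KO2 against -2.85, -3.07, -3.38 and -3.80 in WT. WT replicate 4 lay inside the Glis3KO2 range and the other WT arrays lay above it. The difference was -0.57 (95% interval -1.04 to -0.095, unadjusted p = 0.0238, limma adjusted p = 0.470). It was -0.32 with normexp background and -0.33 with the Xist level as a covariate. Arntl2, a paralog of Arntl, had -0.34 (adjusted p = 0.688).

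Nfil3, which represses from the D-box that DBP activates, is named after its value was seen. It read 0.62, 0.75, 0.75 and 0.84 in Glis3KO2 against 0.59, 0.61, 0.58 and 0.46 in WT, so the groups touched closely without overlap (difference 0.18, limma adjusted p = 0.628). Only the brighter of the 2 Nfil3 probes is given. Rora, an activator of Arntl, had -0.16 on its brightest probe (adjusted p = 0.709), while a dimmer probe, also singled out after its value was seen, had -0.60 with groups that did not overlap (unadjusted p = 0.0028, adjusted p = 0.236).

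The 9 genes whose products modify clock proteins had a median difference of -0.033, with 7 negative and 2 positive. Prkaa1, a catalytic subunit of AMP-activated kinase, read 0.54, 0.71, 0.69 and 0.63 in Glis3KO2 against 0.83, 0.87, 0.84 and 0.79 in WT. Every Glis3KO2 array was below every WT array, by a small margin, and the difference was -0.19 (limma adjusted p = 0.573), while the gene's other probe gave 0.14. Sirt1, a deacetylase that acts on PER2 and ARNTL, likewise had probes of opposite sign, -0.19 on the brightest (adjusted p = 0.754) and 0.16 on the other.

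The 8 clock outputs had a median of 0.026, with 3 negative and 5 positive. Pdk4, a kinase that restrains pyruvate dehydrogenase and rises in fasting, had -0.33 (limma adjusted p = 0.582). Cirbp, an RNA-binding protein induced by cold, read 2.75, 4.22, 3.47 and 3.40 in Glis3KO2 against 3.75, 3.77, 3.66 and 3.50 in WT. Its lowest and highest arrays were both Glis3KO2, and the difference was -0.21 (adjusted p = 0.870).

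Genes that glucocorticoids induce formed a further list, and the 6 tested had a median of -0.11, with 4 negative and 2 positive. No daily hormone rhythm was measured in these pups. Fkbp5, a co-chaperone of the glucocorticoid receptor, read -1.95, -2.39, -2.59 and -2.45 in Glis3KO2 against -2.0, -1.95, -1.80 and -1.84 in WT. Glis3KO2 replicate 1 lay among the WT arrays and the other 3 lay below them. The difference was -0.44 (95% interval -0.77 to -0.12, unadjusted p = 0.0133, limma adjusted p = 0.407). Sgk1, a kinase also induced by glucocorticoids, had the opposite sign, 0.39 (adjusted p = 0.693).

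Immediate early genes, which answer within minutes to stress and handling, had a median of -0.017, with 5 of 9 negative and 4 positive. Atf3, a stress-induced repressor, had -0.31 (unadjusted p = 0.0385, limma adjusted p = 0.525). Fos, a subunit of AP-1, read -2.48, -3.74, -2.43 and -2.37 in Glis3KO2 against -3.74, -2.85, -3.12 and -2.46 in WT. Both genotypes held an array near -3.74, and the difference was 0.29 (adjusted p = 0.868). It was 0.62 without Glis3KO2 replicate 2 and 0.056 without WT replicate 1.

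**Figure D4:**
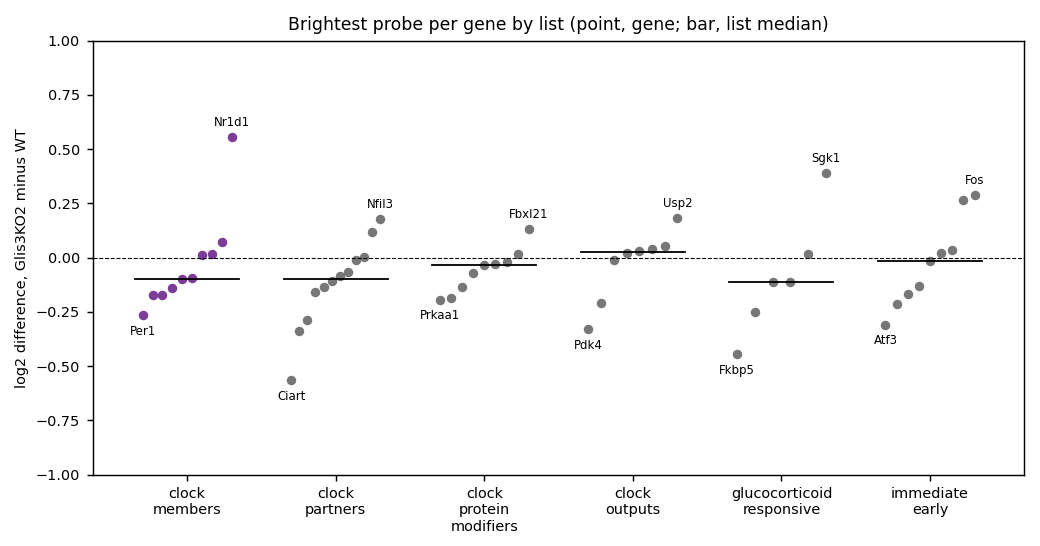
Log2 difference, Glis3KO2 minus WT (y axis), of the brightest probe of each gene (points) in the clock members and the 5 further lists, with a bar at each list's median. Medians lie between -0.11 and 0.026, and Ciart at -0.57 and Nr1d1 at 0.56 are the points furthest from 0.

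Marker lists of pancreatic cell types were read beside the clock genes. Of all genes, 0.351% passed the threshold, and at an unadjusted p of 0.05 4.74% were lower and 3.52% higher. The summed signal of 6 beta cell markers, relative to the 75th percentile, was 191 to 396 on Glis3KO2 arrays and 732 to 902 on WT arrays. Of these markers 5 fell in Glis3KO2 (limma), and the other, Iapp, a hormone stored with insulin, had a difference of 0.45. Markers of other islet cells summed to 123 to 201 on Glis3KO2 arrays and 209 to 236 on WT arrays, with 1 of 4 past the threshold and all 4 lower at an unadjusted p of 0.05.

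Acinar markers, of the cells that make up most of the tissue, summed to 1142 to 1528 on Glis3KO2 arrays and 1295 to 1560 on WT arrays, with 0 of 5 past the threshold in limma and 0 at an unadjusted p of 0.05. The sums of duct, mesenchyme, erythroid, adipocyte and leukocyte markers likewise overlapped between genotypes, with 0 genes past the threshold in limma. At an unadjusted p of 0.05 there was 1 of 5 duct markers and 0 in the other lists of this set. Endothelial markers summed to 15.3 to 18.4 on Glis3KO2 arrays and 19.8 to 23.7 on WT arrays, with 0 of 5 past the threshold in limma and 2 at an unadjusted p of 0.05. The sums of nerve and glia markers were also apart, 0.987 to 1.24 on Glis3KO2 arrays and 1.25 to 1.57 on WT arrays, with 0 of 4 past the threshold in limma and 1 at an unadjusted p of 0.05. Proliferation genes summed to 29.6 to 40.5 on Glis3KO2 arrays and 25.7 to 30.9 on WT arrays, with 0 of 5 past the threshold in limma and all 5 higher at an unadjusted p of 0.05. In whole pancreas fewer cells of a type and less RNA per cell cannot be told apart, and the part of these differences in the clock gene values was not tested.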

How the data were processed

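Total RNA, 500 ng per sample, was labelled with Cy3 and hybridised to 1 array per sample, per the labels' protocols. Groups and replicate numbers came from the sample titles. The deposited values are linear spot intensity readings from Agilent Feature Extraction 9.5.3.1 per the file headers (9.5 per the submitters' processing notes), and the headers give probe positions on build mm7. The processed signal is corrected for background and not scaled between arrays.

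From these, log2 of the processed intensity minus the 75th percentile of each array over 43379 non-control spots was computed. Spots with an outlier mark, 56 to 130 per array, were dropped before spots of the same probe were averaged. Probes well above background on at least 4 of 8 arrays, 33239 of 41174, were tested for genotype with limma 3.58.1 in R 4.3.3 (lmFit and eBayes, 2-sided, Benjamini-Hochberg over all tested probes, threshold 0.05). Scaling sets bright probes level between arrays, so a shift common to most genes is hidden. Of 25510 probes that carry RefSeq accessions, 22951 were found in the RefSeq gene table, and others kept the name in the array files. The fit was tested on simulated data. Correlations, promoter matches and figures used Python 3.11.15.

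The members, lists and alternatives were chosen with earlier results of these data known. All members and probes are named. From each further list the 2 genes with the largest absolute difference among those well above background on all arrays of a group are named, or up to 4 past the threshold, and for likeness the 5 genes with the highest r. Other genes are said to be named after their values were seen.

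Alternatives were normexp background (offset 50), quantile normalization, median scaling, no filter, detection required on all 8 arrays, the series table as deposited, a block for the replicate number, trended and robust eBayes, array weights, the Xist level as a covariate, Glis3KO2 replicates 3 and 4 left out together, each array left out in turn, and averaging the probes of each gene. Leaving out each array for the Arntl relations was added after values were seen. Slide was not used as a block, since each slide held 1 genotype. Each gene was otherwise represented by its brightest probe over all 8 arrays. Brightness differs between probes for reasons other than RNA amount, so it served only to choose a probe and to weight marker sums.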

Additional observations from a re-analysis of the deposited data

Results flagged for a closer look

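Of 56 groups of 4 arrays examined, 2 held an array whose gap to the others was above the 95% critical value of Dixon's test, which chance gives in about 1 in 20 groups. Per1, a repressor of the clock loop, was 0.50 on Glis3KO2 replicate 2, where the other 3 Glis3KO2 arrays lay between -0.11 and -0.063 (log2 relative to the 75th percentile of the array). Fos, an immediate early gene, was -3.74 on the same array, where the other 3 lay between -2.48 and -2.37.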

How the results depend on the processing

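Under 19 alternatives, 0 of 342 clock gene probe values passed the threshold (limma, smallest adjusted p 0.326). Of these values 309 kept their direction, with 7 of 18 probes keeping it throughout. Some alternatives left every clock gene difference as it was and could change only p-values. They were the series table, either change of filter, the replicate block, and trended and robust eBayes. The 309 thus include values whose direction was fixed in advance. The counts of clock genes and of further list genes past the threshold stayed at 0, and the cause of the reversals below was not tested. With normexp background the log2 difference was -0.014 for Cry1 probe 1, -0.071 for Cry2 probe 2 and -0.030 for Nr1d1 probe 3, and with array weights the last was -0.042. With the Xist level as a covariate it was 0.050 for Per3, 0.014 for Cry2 probe 1, 0.0025 for Dbp, 0.092 for Cirbp and -0.23 for Fos. Without Glis3KO2 replicates 3 and 4 together it was 0.020 for Per2 probe 2, 0.11 for Per3, -0.042 for Cry1 probe 1, -0.36 for Cry1 probe 2, 0.030 for Cry2 probe 1, -0.0098 for Cry2 probe 2, 0.040 for Nr1d1 probe 2, 0.12 for Dbp, 0.032 for Sirt1, -0.029 for Sgk1 and -0.066 for Fos. The r of Arntl with Per3 was -0.037 with quantile normalization and -0.12 without those arrays.

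With each array left out in turn, ranges that crossed 0 were -0.065 to 0.14 for Clock probe 1, -0.35 to 0.025 for Per3, -0.033 to 0.26 for Cry1 probe 1, -0.14 to 0.36 for Cry1 probe 2, -0.12 to 0.16 for Cry2 probe 2, -0.12 to 0.26 for Nr1d1 probe 3, -0.098 to 0.083 for Nr1d2 and -0.47 to 0.025 for Cirbp. The median of the activators ran from -0.096 without WT replicate 2 to 0.011 without WT replicate 3. That of the repressors and Dbp ran from -0.23 without Glis3KO2 replicate 2 to -0.0028 without Glis3KO2 replicate 4, and turned positive with the Xist covariate (0.032) and without Glis3KO2 replicates 3 and 4 (0.046).

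Over all probes, 85 passed the threshold, 51 with no filter, 142 with trend and robust settings, 27 with the Xist covariate, 11 without Glis3KO2 replicates 3 and 4, and 35 to 96 with 1 array left out. With the replicate number as a block the count was 15, and it stayed at 0 for the clock genes. Same-numbered arrays deviated together with r = 0.13, 0.089, 0.24 and -0.037 for numbers 1 to 4, and 5 of 8 arrays correlated best with their own number, a hint of sharing from the data. The correlation was not over 0.1 in every pair and the labels tie no numbers together, so the numbers were not taken as pairs. The dim probes of Clock, Per3, Cry1, Nr1d1 and Ciart are limited by signal over background, and 4 arrays per genotype limit all values.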
